A study of Homo sapiens with 9 samples.

Results

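The genes described here handle iron in the cell. TFRC and SLC11A2 bring iron in, FTH1 and FTL store it, NCOA4 sends the store to the lysosome, SLC40A1 exports iron, ACO1, IREB2 and FBXL5 sense it, and HMOX1 frees it from haem. These 10 genes were picked by name as iron homeostasis genes, with no measured value in the rule, out of 59453 gene names in the count table. Earlier results of these data were known when they were chosen. All 10 were among the 16556 genes with enough counts to be tested. In the reference annotation used here, no exonic base of the 10 genes lies in an exon of another gene on the same strand. The question was whether TEPA, a copper chelator, also gave an iron response.

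RNA was sequenced from MDA-MB-231 cells, an established human triple-negative breast cancer line grown in DMEM with fetal bovine serum. The study spells out TEPA as one polyamine in its text and names another, trientine dihydrochloride, among its reagents. There were 3 libraries of untreated cells, 3 of cells exposed to TEPA for 8 h and 3 of cells exposed for 24 h. The labels give 8 mM TEPA, the sequencing methods 4 mM and the general treatment methods both. One set of untreated cells served as the control of both times, so hours in culture and exposure to TEPA cannot be told apart. The labels do not say that the 3 libraries of a group came from separate cultures, and p-values may then measure technical spread alone. Libraries held between 34633755 and 49342659 counts, so that 1 count equals 0.0196 to 0.0278 CPM, the normalised read count on library sizes scaled by TMM factors. Genes were tested with edgeR's quasi-likelihood model, and a gene was called different where the Benjamini-Hochberg adjusted p, taken across the 16556 genes, was under 0.05.

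The libraries carried most of the markers of this line. VIM was at 3674 ± 124 CPM in untreated cells (SD, n = 3), CD44 at 859 ± 61.3 CPM and KRT18 at 301 ± 9.79 CPM, whereas ESR1 was at 0.155 CPM on average and PGR had no count in any library. Of the epithelial genes, CDH1 was at 0.624 CPM untreated, 0.351 CPM at 8 h and 3.19 CPM at 24 h, higher in all 24 h libraries than in any other, and EPCAM was at 1.13, 1.45 and 1.12 CPM. ERBB2, also listed as low in a triple-negative line, went against that, with 81.4 ± 5.11 CPM without TEPA and means of 73.2 and 53.0 CPM after 8 h and 24 h of TEPA. Markers of other cell types were few: those of leukocytes, iron-handling macrophages, hepatocytes and red blood cells had at most 6 counts in any library. The 9 markers together summed to between 16.9 and 18.5 CPM in the untreated libraries, 33.1 to 33.9 CPM at 8 h and 26.0 to 26.7 CPM at 24 h, with 2 to 5 of the 9 at 0 in each library. COL1A1, a fibroblast collagen gene and the most abundant of them, ran in the same order, at 13.7, 32.4 and 18.0 CPM on average, and PECAM1, an endothelial gene, stood at 3.59, 1.06 and 8.13 CPM. The part of these markers in the results below was not tested. In bulk RNA, a lower share of cells expressing a gene and less RNA per cell cannot be told apart.

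Cells read their iron level through 2 RNA-binding proteins, the iron regulatory proteins IRP1 (encoded by ACO1) and IRP2 (IREB2). When iron is scarce they bind iron-responsive elements (IREs), short hairpins in mRNA. In a 3′ UTR, as in TFRC, binding protects the mRNA from decay, so the mRNA level itself is known to rise. In a 5′ UTR, as in the ferritin genes and SLC40A1, binding blocks translation, which mRNA counts do not show. FBXL5 is the iron-sensing subunit of the ubiquitin ligase that degrades IRP2 when iron is plentiful.

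The hairpins are shown because IRPs bind such elements in some of these mRNAs. The transcript strand of each annotated UTR was searched for a C, 5 bases, CAGTGN and 5 further bases in which at least 4 of the 5 stem positions pair, with G and T counted as a pair. Sequences are from hg38 with GENCODE transcripts, 5′ to 3′, with the bulged C and the 6-base loop in capitals. The TFRC 3′ UTR held 4 matches, on the minus strand of chromosome 3.
TFRC, chr3:196050978-196051007: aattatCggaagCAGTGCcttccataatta
TFRC, chr3:196050574-196050603: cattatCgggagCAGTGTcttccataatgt
TFRC, chr3:196050509-196050538: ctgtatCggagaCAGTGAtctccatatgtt
TFRC, chr3:196050462-196050491: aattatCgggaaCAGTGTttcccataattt
The 5′ UTRs of FTH1 (minus strand), FTL (plus strand) and SLC40A1 (minus strand) held 1 match each.
FTH1, chr11:61967573-61967602: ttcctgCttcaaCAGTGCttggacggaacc
FTL, chr19:48965335-48965364: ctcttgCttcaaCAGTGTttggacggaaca
SLC40A1, chr2:189580660-189580689: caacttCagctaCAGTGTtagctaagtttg
In these 7 matches all 5 stem positions paired. The 3′ UTR of SLC11A2, on the minus strand, held a match with 4 paired positions, in 6 of its annotated transcripts.
SLC11A2, chr12:50988268-50988297: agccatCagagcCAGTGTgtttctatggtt

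Such matches were rare over all coding genes, these members included. Of 19647 canonical 5′ UTRs, 0.54% held one, as did 4.3% of 19571 canonical 3′ UTRs. Among 3′ UTRs at least as long as that of TFRC, cut to its 2658 bases, 6.65% of 4303 held at least 1, and the 1 that held at least 4 was that of TFRC itself. A single match with 4 paired positions was also found in the 3′ UTRs of IREB2 and ACO1, and none in those of HMOX1, NCOA4 and FBXL5. A match is a description of letters, not proof of a working element.

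At 8 h, 1 of the 10 iron genes was higher and 5 were lower than in untreated cells, against 49.6% of all genes tested called in either direction, 25.2% higher and 24.5% lower. At 24 h the counts were again 1 higher and 5 lower, against 52.5% of all genes, 25.7% higher and 26.8% lower. Most changes were small. The median size of the log2 fold change over the 10 genes was 0.145 at 8 h and 0.195 at 24 h. Over all genes tested these medians were larger, 0.224 and 0.242. SLC40A1 was the 1 member called with a log2 fold change beyond 0.5 at each time. Of all genes tested, 17.8% and 18.7% were both called and beyond that size. The untreated libraries are shared by both times, so the directions at 8 h and 24 h are not independent.

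**Figure D1:**
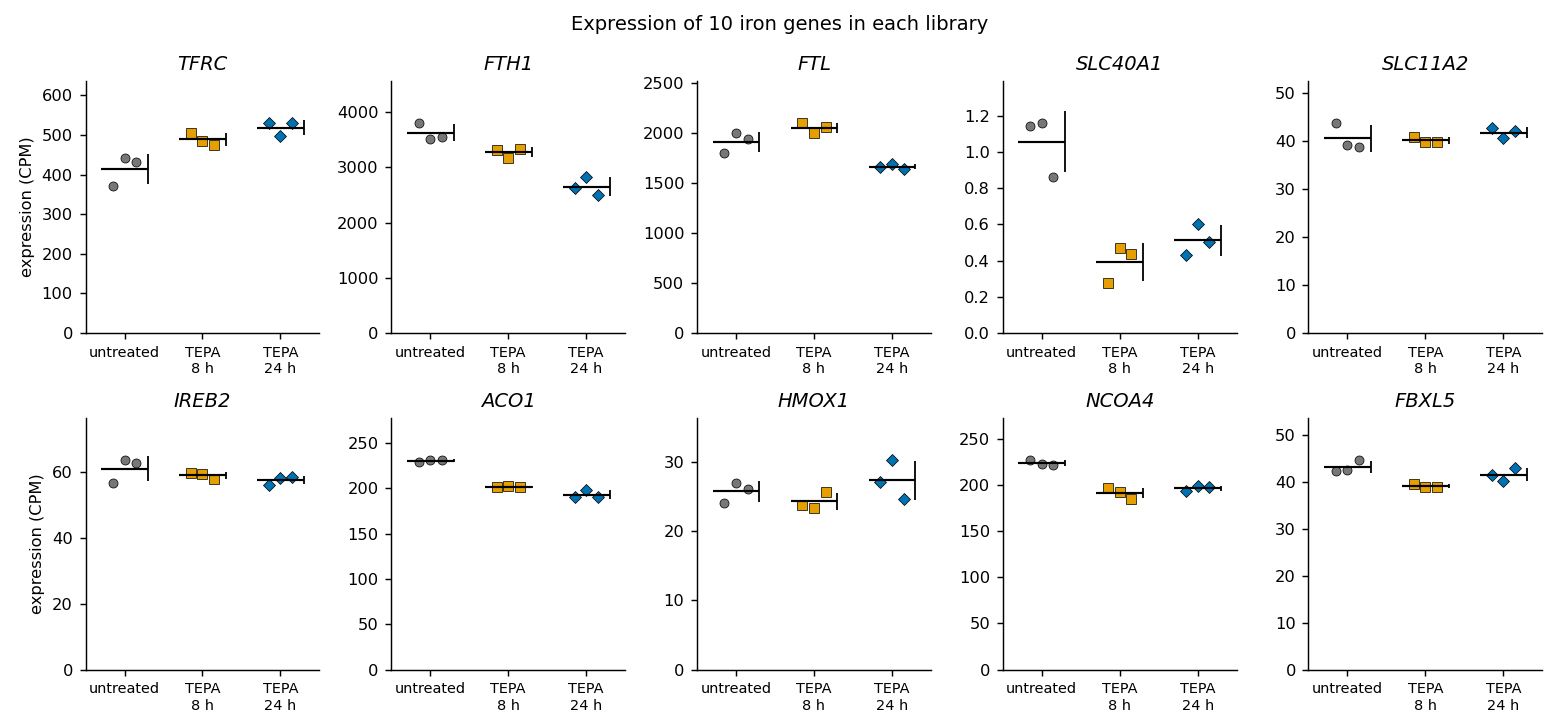
Expression of the 10 iron genes in each library, in CPM on a linear axis from 0, for untreated cells, TEPA for 8 h and TEPA for 24 h (3 libraries each, horizontal line the mean, vertical bar ± 1 SD). TFRC libraries sit higher with TEPA than without, those of FTH1, SLC40A1, ACO1 and NCOA4 sit lower at both times, and those of SLC11A2, IREB2 and HMOX1 overlap.

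TFRC, the transferrin receptor that takes up transferrin-bound iron, was the member that rose. Untreated libraries were at 371, 441 and 432 CPM, those at 8 h at 506, 485 and 475 CPM, and those at 24 h at 530, 496 and 529 CPM. Neither TEPA group overlapped with the untreated group, of which replicate 1 was the lowest. Such a gap was common, as 57.8% of all genes did not overlap at 8 h and 57.2% at 24 h. The log2 fold change was 0.24 at 8 h (standard error 0.0546, adjusted p = 0.00196), or 17.9% higher, and 0.32 at 24 h (standard error 0.0546, adjusted p = 1.29e-04), or 25.1% higher. Of all genes tested, 52.2% had a smaller change at 8 h and 60.9% at 24 h. Without untreated replicate 1, the log2 fold changes of TFRC were 0.16 and 0.25, both still called. The difference between 24 h and 8 h was not called (0.09, 95% interval -0.03 to 0.20, adjusted p = 0.199).

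SLC11A2, the divalent metal transporter DMT1 that moves iron out of the endosome, was the other importer. Its libraries were at 43.8, 39.2 and 38.8 CPM untreated, 41.0, 39.8 and 39.8 CPM at 8 h, and 42.8, 40.6 and 42.1 CPM at 24 h. All 3 groups overlapped. Its log2 fold change was -0.01 at 8 h (95% interval -0.12 to 0.10, adjusted p = 0.85) and 0.04 at 24 h (-0.06 to 0.15, adjusted p = 0.491). Transcripts of SLC11A2 with and without the hairpin are summed in 1 count and could not be separated.

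FTH1, the ferritin heavy chain that oxidises iron as it is stored, fell at both times. It stood at 3802, 3520 and 3552 CPM in the untreated libraries, 3319, 3176 and 3330 CPM at 8 h, and 2625, 2831 and 2497 CPM at 24 h. Each group lay wholly below the one before it, and 62% of all genes did not overlap between 8 h and 24 h. The log2 fold change was -0.15 at 8 h (standard error 0.0468, adjusted p = 0.0165) and -0.45 at 24 h (standard error 0.0468, adjusted p = 9.3e-07), or 26.9% lower. Leaving out TEPA 8 h replicate 2 ended the 8 h call (-0.13, adjusted p = 0.069, the highest of the 9 fits that left out 1 library, which began at 0.00505). From 8 h to 24 h the log2 fold change of FTH1 was -0.30 (adjusted p = 4.71e-05). In that comparison 2 of the 10 members were lower and 0 higher (1 at an unadjusted p under 0.05 and 1 by DESeq2, in both cases HMOX1). Of all genes tested, 54.8% were called, 28.8% lower and 26% higher. No member was called with a log2 fold change beyond 0.5, whereas 21.2% of all genes were both called and beyond that size.

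FTL, the ferritin light chain that helps form the mineral core, was the other gene lower at 24 h than at 8 h. Its libraries were at 1802, 1997 and 1944 CPM untreated, 2100, 1997 and 2056 CPM at 8 h, and 1664, 1693 and 1635 CPM at 24 h. The 8 h and untreated groups overlapped, and the 24 h libraries were below both. At 8 h the log2 fold change of FTL was 0.10 (95% interval 0.01 to 0.19) and missed the threshold (adjusted p = 0.0553). It ranged from 0.056 to 0.12 when 1 library was left out, and it was called higher without untreated replicate 2 (adjusted p = 0.0193) and with upper-quartile factors (0.11, adjusted p = 0.0325). At 24 h it was -0.20 (standard error 0.0411, adjusted p = 6.53e-04), and against 8 h it was -0.30 (adjusted p = 1.44e-05). FTH1 counts divided by FTL counts in the same library gave 2.11, 1.76 and 1.83 untreated, 1.58, 1.59 and 1.62 at 8 h, and 1.58, 1.67 and 1.53 at 24 h. The untreated ratios were above all those with TEPA, and the 8 h and 24 h ratios overlapped.

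Both ferritin genes have many processed pseudogenes, to which reads can be misassigned. The 25 rows named as FTH1 pseudogenes took 0.936% to 1.05% of the counts of that family, and the largest of them was FTH1P7, with 5584 counts over the 9 libraries. The 16 rows named as FTL pseudogenes took 0.172% to 0.230%. Adding these rows to FTH1 and FTL changed neither a direction nor a call.

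The ratio of TFRC to FTH1 counts within a library does not depend on how libraries are scaled. TFRC counts were 9.75%, 12.5% and 12.2% of FTH1 counts in untreated cells, 15.2%, 15.3% and 14.3% at 8 h, and 20.2%, 17.5% and 21.2% at 24 h. The means were 11.5% ± 1.51, 14.9% ± 0.575 and 19.6% ± 1.89 (SD, n = 3), and the 3 groups did not overlap. This ratio was chosen with the values of both genes known and is given as a description.

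**Figure D2:**
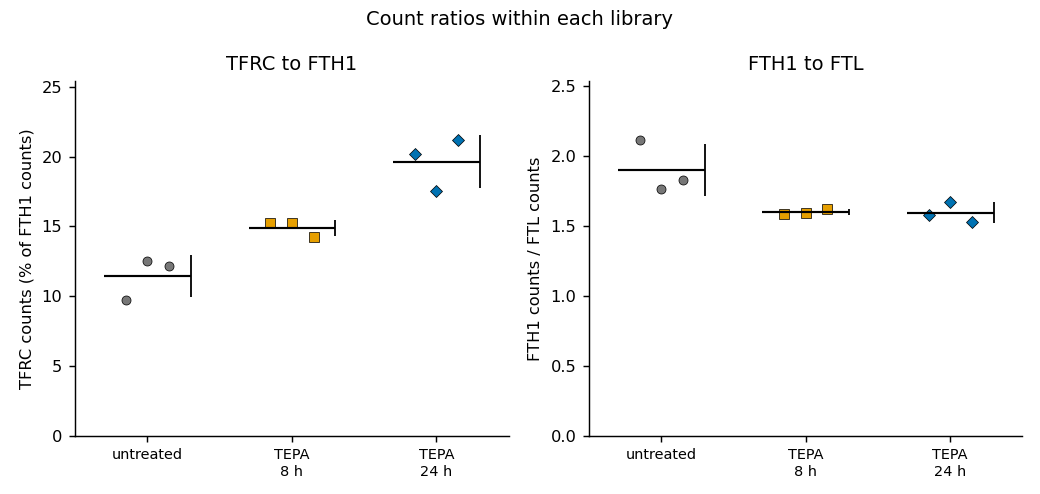
Counts of TFRC as a percentage of FTH1 counts (left) and FTH1 counts divided by FTL counts (right) within each library, on linear axes from 0, with the mean (horizontal line) and ± 1 SD (vertical bar) of 3 libraries. The TFRC to FTH1 ratio is lowest in untreated cells (11.5%) and highest at 24 h (19.6%), and the FTH1 to FTL ratio is highest in untreated cells (1.90).

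NCOA4, the receptor that delivers ferritin to the lysosome for iron release, fell at both times. Its libraries were at 227, 223 and 221 CPM untreated, 196, 192 and 185 CPM at 8 h, and 193, 198 and 198 CPM at 24 h. Both TEPA groups were wholly below the untreated group. The log2 fold changes were -0.23 at 8 h (standard error 0.035, adjusted p = 6.35e-05) and -0.19 at 24 h (adjusted p = 2.9e-04), and no difference between the 2 times was called (0.04, 95% interval -0.04 to 0.11, adjusted p = 0.367).

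SLC40A1 encodes ferroportin, the iron exporter, and had the largest fold change of the 10 genes at a very low level. Counts were 43, 53 and 34 in the untreated libraries (1.146, 1.16 and 0.862 CPM), 11, 18 and 16 at 8 h (0.275, 0.471 and 0.435 CPM), and 22, 26 and 18 at 24 h (0.432, 0.602 and 0.501 CPM). No TEPA library reached the lowest untreated one, and the 2 TEPA groups overlapped. SLC40A1 fell by 1.43 on the log2 scale at 8 h (standard error 0.273, adjusted p = 4.63e-04) and by 1.05 at 24 h (standard error 0.256, adjusted p = 0.00271). With so few counts the 95% intervals were wide, from -2.01 to -0.84 and from -1.60 to -0.51.

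ACO1, which encodes IRP1 in its RNA-binding form and a cytosolic aconitase when it holds an iron-sulfur cluster, fell at both times. It was at 229, 231 and 231 CPM untreated, 201, 203 and 201 CPM at 8 h, and 191, 198 and 190 CPM at 24 h. All TEPA libraries were below all untreated ones. The log2 fold change was -0.19 at 8 h (standard error 0.0333, adjusted p = 1.93e-04) and -0.26 at 24 h (standard error 0.0333, adjusted p = 1.02e-05). ACO1 libraries at 24 h lay below those at 8 h without reaching the threshold (-0.06, adjusted p = 0.121).

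IREB2 and FBXL5 make the other sensing pair, IRP2 and its iron-dependent degrader. IREB2 was at 56.7, 63.6 and 62.6 CPM untreated, 59.7, 59.3 and 57.7 CPM at 8 h, and 56.0, 58.0 and 58.4 CPM at 24 h. These groups overlapped, with log2 fold changes of -0.05 (95% interval -0.15 to 0.05, adjusted p = 0.394) and -0.09 (-0.19 to 0.01, adjusted p = 0.133). Without untreated replicate 1 IREB2 was called lower at 24 h (-0.14, adjusted p = 0.0102, in a range of 0.0102 to 0.383 over the 9 fits that left out 1 library). FBXL5 was at 42.2, 42.5 and 44.7 CPM untreated, 39.5, 38.8 and 38.8 CPM at 8 h, and 41.4, 40.1 and 42.9 CPM at 24 h. It fell at 8 h (-0.14, standard error 0.0452, adjusted p = 0.0154), a call lost without untreated replicate 3 (-0.12, adjusted p = 0.0666, in a range of 0.0122 to 0.0666), and was not called at 24 h (-0.06, 95% interval -0.15 to 0.04, adjusted p = 0.318). FBXL5 libraries at 24 h lay above those at 8 h without reaching the threshold (0.09, adjusted p = 0.114). Between these times 62% of all genes did not overlap. IRP2 is controlled mainly by protein degradation, which these counts do not measure.

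HMOX1, haem oxygenase-1, frees iron by breaking down haem and is a sensitive stress gene. Its libraries were at 24.1, 27.0 and 26.1 CPM untreated, 23.7, 23.4 and 25.7 CPM at 8 h, and 27.1, 30.3 and 24.7 CPM at 24 h. All groups overlapped. The log2 fold changes were -0.09 at 8 h (95% interval -0.24 to 0.07, adjusted p = 0.353) and 0.09 at 24 h (-0.06 to 0.24, adjusted p = 0.326). With 1 library left out they ranged from -0.13 to -0.057 at 8 h and from 0.0082 to 0.15 at 24 h, and none of these 9 fits called either. The difference of 24 h from 8 h was 0.17 (adjusted p = 0.0531), and it was called higher by DESeq2 (0.18, adjusted p = 0.0367, in a range of 0.0183 to 0.0686 over the alternatives that kept every library of both groups).

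**Figure D3:**
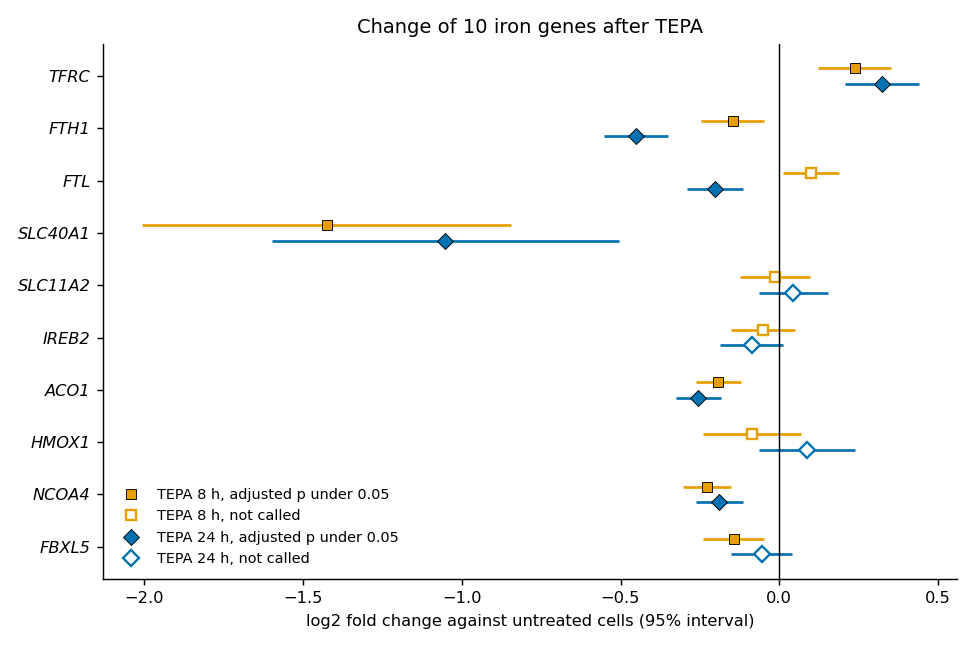
Log2 fold change of each iron gene against untreated cells at 8 h (squares) and 24 h (diamonds), with 95% intervals, filled where the adjusted p is under 0.05. TFRC lies to the right of 0 (0.24 and 0.32), SLC40A1 is farthest to the left (-1.43 and -1.05), and the intervals of SLC11A2, IREB2 and HMOX1 cross 0.

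Levels can be compared between genes once divided by exon length. In untreated cells FTL and FTH1 were at 2198 and 1809 CPM per kb of exon, ranks 6 and 8 of the 14580 tested genes with an annotated length. NCOA4 followed at 56.1 CPM per kb, ACO1 at 30.5, TFRC at 23.9 and HMOX1 at 11.2. FBXL5 was at 9.17 CPM per kb, IREB2 at 5.64, SLC11A2 at 4.11 and SLC40A1 at 0.250. TFRC has a long annotated exon set, and on its canonical transcript its level was 82.7 CPM per kb, above the 64.6 of NCOA4. On canonical transcripts FTH1, at 3013 CPM per kb, was above FTL, at 2198, and SLC11A2, at 9.83, was above IREB2, at 9.64. The orders of FTH1 and FTL, of TFRC against NCOA4 and ACO1, and of SLC11A2 and IREB2 therefore turn on the transcript model.

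Other genes of iron metabolism were read from 8 lists holding 108 genes, of which 95 were tested. At 8 h, 16 of the 95 were higher and 41 lower (60% called beside 49.6% of all genes tested, with a median log2 fold change of -0.10 beside -0.0013). At 24 h, 18 were higher and 48 lower (69.5% called beside 52.5% of all genes, median -0.16 beside 0.0023). Of the 95, SCARA5, BMP6 and FDX2 passed the filter without reaching its level in all 3 groups, and the 92 others gave 16 higher and 41 lower at 8 h and 17 higher and 47 lower at 24 h. All 10 members reached it in every library. The 13 genes that were not tested had at most 9 counts in any library, and they include TFR2, TF, HAMP and CP. BOLA2 was listed at 0 in every library, and every exonic base of it is shared with a read-through gene.

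Genes of receptor and importer uptake went both ways. Of the 9 that reached the filter's level in every group, 3 were higher and 3 lower at 8 h, and 3 were higher and 2 lower at 24 h, beside 49.6% and 52.5% of all genes called. Of the genes called higher, MCOLN1 lost its 8 h call in 3 alternative fits and its 24 h call in 2. LRP1 lost its 24 h call in 6. SLC39A8, the metal importer ZIP8, rose at both times (0.30 and 0.36), while STEAP3, the ferrireductase that acts beside TFRC in the endosome, fell at both (-0.13 and -0.56), though its 8 h call was lost without untreated replicate 3. CYBRD1, a plasma membrane ferrireductase, fell at 8 h (-0.65) and was not called at 24 h (0.13), and HFE, a partner of the transferrin receptor, behaved alike (-0.52 and 0.01). SCARA5, a ferritin receptor, had 15 to 24 counts per library at 24 h, 0 to 5 at 8 h and 0 to 7 in untreated cells. It entered the test through the 24 h libraries alone, so its difference there is no result of the test.

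Of 7 storage and ferritinophagy genes tested beside the members, 1 was higher and 4 lower at 8 h, and 2 were higher and 4 lower at 24 h (71.4% and 85.7% called, beside 49.6% and 52.5% of all genes). PCBP2 and GLRX3, which hand iron to client proteins, fell at 24 h (-0.40 and -0.25) and were not called at 8 h (-0.01 and 0.02). TAX1BP1, an adaptor of ferritin turnover, fell at 8 h (-0.27) and rose at 24 h (0.13), although the 24 h call was lost in 2 fits that left out 1 library. HERC2, the ligase that degrades NCOA4, rose at both times (0.28 and 0.19). Beside BMP6, which had 1 to 7 counts per library at 24 h, 3 export genes were tested. Of these, 1 was higher and 2 lower at 8 h, and 2 were lower and 0 higher at 24 h, where 49.6% and 52.5% of all genes were called (0 higher also at an unadjusted p under 0.05 and by DESeq2). FLVCR1, a haem exporter, rose at 8 h (0.28) and fell at 24 h (-0.56). NDFIP1, an adaptor in the degradation of DMT1, fell at both (-0.27 and -0.25). ABCG2, another haem exporter, fell at 8 h (-0.45) and was not called at 24 h (0.07).

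Of 9 genes with reported hairpins or a part in IRP turnover and cluster supply, 2 were higher and 6 lower at 8 h, and 3 were higher and 6 lower at 24 h (88.9% and 100% called, beside 49.6% and 52.5% of all genes). By DESeq2, 1 was higher and 6 lower at 8 h, and 3 were higher and 5 lower at 24 h. The call of SKP1 as lower at 24 h was lost in 11 alternative fits. CDC14A, a phosphatase with a reported 3′ IRE, rose at both times (0.20 and 0.45), though its 8 h call was lost in 7 alternative fits, DESeq2 among them. CDC42BPA, a kinase with a reported 3′ IRE, rose at 24 h (0.28) and was not called at 8 h (-0.03). EPAS1, which encodes HIF-2α and has a 5′ IRE, fell by 0.77 and 0.24. CUL1, the scaffold of the FBXL5 ligase, fell by 0.25 and 0.34, and MMS19, of the cytosolic iron-sulfur machinery, by 0.27 and 0.57. CIAO3, another part of that machinery, rose (0.45 and 0.27).

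Of the 23 genes of mitochondrial iron and iron-sulfur clusters, 4 were higher and 2 lower at 8 h, and 7 were higher and 8 lower at 24 h. The shares called were 26.1%, below the 49.6% of all genes tested, and 65.2%, beside 52.5%. BOLA3, which helps pass clusters to mitochondrial enzymes, was at 64.4, 79.1 and 71.5 CPM untreated, 75.0, 75.1 and 71.6 CPM at 8 h, and 31.0, 32.6 and 31.0 CPM at 24 h. Its 24 h libraries were all below the rest, with a log2 fold change of -1.19 at 24 h and 0.04, not called, at 8 h. SLC25A37, the mitochondrial iron importer mitoferrin-1, rose at both times (0.38 and 0.27). CIAO2B fell at both (-0.30 and -0.19), though its 24 h call was lost without TEPA 24 h replicate 1 and without replicate 3, and CIAPIN1 fell at 24 h (-0.43).

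Of 18 haem genes, 1 was higher and 7 lower at 8 h, and 1 was higher and 10 lower at 24 h. The shares called were 44.4%, beside 49.6% of all genes tested, and 61.1%, beside 52.5%. ABCB10, a mitochondrial transporter needed for haem synthesis, fell at both times (-0.21 and -0.49), and SLC48A1, which moves haem out of the lysosome, fell at 24 h (-0.75). The biliverdin reductases act after HMOX1. BLVRA fell at 8 h (-0.54) and was not called at 24 h (-0.04), and BLVRB fell at 8 h (-0.34) and rose at 24 h (0.18). HMOX1 is also a target of NRF2, the oxidative stress factor. Of 10 genes made up of NRF2 itself (NFE2L2), its repressor KEAP1 and other targets, 2 were higher and 6 lower at 8 h, and 7 were lower and 0 higher at 24 h (0 also at an unadjusted p under 0.05 and by DESeq2). The shares called were 80%, beside 49.6% of all genes tested, and 70%, beside 52.5%. NQO1, a quinone reductase, fell at both times (-0.16 and -0.49), and SRXN1 rose at 8 h (0.49), though 90.7% of its exonic bases are shared with an unnamed gene of the reference annotation. SLC7A11, the cystine importer that protects cells from ferroptosis, was at 167, 218 and 192 CPM untreated, 245, 215 and 221 CPM at 8 h, and 89.9, 79.2 and 102.8 CPM at 24 h. It fell at 24 h (-1.09), and its call as higher at 8 h (0.24) was lost under DESeq2 and in 4 fits that left out 1 library.

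Prolyl hydroxylases need iron to mark HIF for degradation, and iron chelators are known to raise HIF target genes. A list of 14 genes held 9 such targets and the regulators EGLN1, EGLN2, EGLN3, HIF1AN and HIF1A. Of the 9 targets, 7 were lower and 1 higher at 8 h, where 24.5% of all genes were lower, and 6 were lower and 1 higher at 24 h, where 26.8% were lower. Of the 5 regulators, 4 were lower and 1 higher at 8 h, and 2 were lower at 24 h. NDRG1, a gene known to rise when iron is chelated, was at 77.4, 55.3 and 61.6 CPM untreated, 24.1, 25.3 and 25.9 CPM at 8 h, and 30.4, 32.6 and 29.6 CPM at 24 h. All its TEPA libraries were below all untreated ones, and it fell by 1.36 on the log2 scale at 8 h and by 1.07 at 24 h. Without untreated replicate 1, the highest of them, the falls were 1.22 and 0.92. BNIP3, a mitophagy receptor, fell by 0.50 and 0.44, and KDM3A, a histone demethylase, by 0.31 and 0.48.

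Not every gene of that list was lower. At 8 h, 2 of the 14 were higher and 1 was not called. At 24 h, 1 was higher and 5 were not called. Of all genes tested, 25.2% were higher at 8 h and 25.7% at 24 h. EGLN2, the hydroxylase PHD1, was called higher at 8 h (0.79) at 3.43 CPM, and 30.6% of its exonic bases are shared with other genes, so its counts may be split. EGLN1, the hydroxylase PHD2, fell at both times (-0.29 and -0.31), and 55.8% of its exonic bases are shared with an unnamed gene. VEGFA was called higher at 8 h (0.12), a call lost in 4 fits that left out 1 library. ADM was not called at 8 h (-0.11) and rose at 24 h (0.35). Other genes of the list that fell include HIF1A itself (-0.40 and -0.23) and SLC2A1, the glucose transporter (-0.40 and -0.18). EGLN3, the hydroxylase PHD3, fell at 8 h (-0.82) and was not called at 24 h (0.02).

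**Figure D4:**
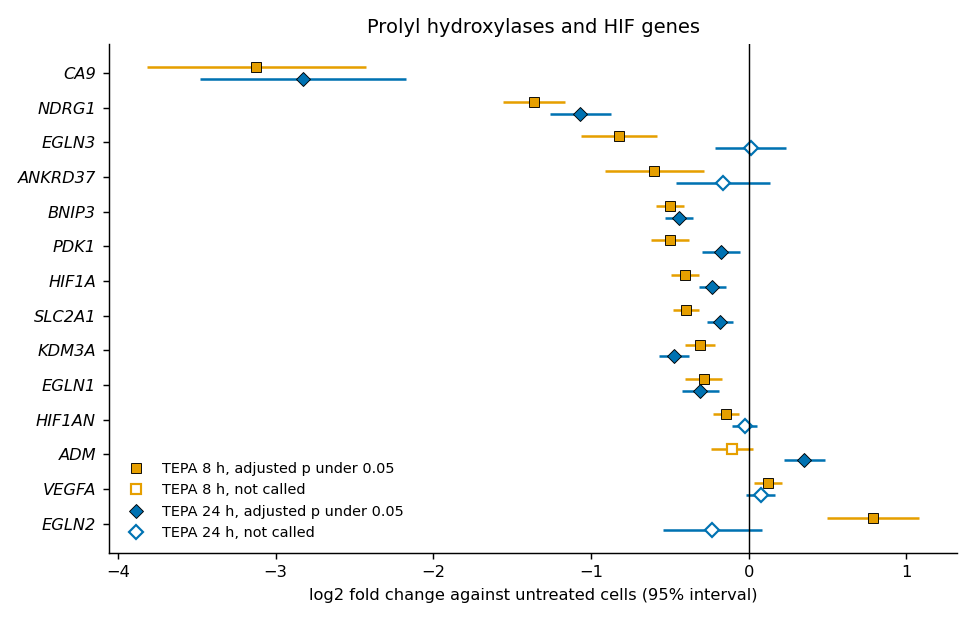
Log2 fold change against untreated cells of the 14 genes of the list of prolyl hydroxylases and HIF genes, at 8 h (squares) and 24 h (diamonds) with 95% intervals, filled where the adjusted p is under 0.05. Most points lie to the left of 0, NDRG1 at -1.36 and -1.07, while EGLN2 at 8 h (0.79) and ADM at 24 h (0.35) lie to the right.

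Across the 9 libraries, the genes whose log2 CPM ran most like TFRC, among 11919 genes with a mean of at least 100 counts, included ANKRD50 (Pearson r = 0.991) and PAK2 (r = 0.987). For FTH1 they were ZSCAN9 (r = 0.993), TAZ, which is tafazzin in this annotation (r = 0.991), and IFT22 (r = 0.989). The closest to HMOX1 had lower values, FAM3C2P (r = 0.939), C7orf26 (r = 0.893) and F12 (r = 0.874). These 9 points share 3 treatment groups, and the values are descriptions. Among the members, ACO1 and FTH1 ran most opposite to TFRC (r = -0.884 and -0.849).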

How the data were processed

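RNA-Seq libraries were paired-end and made with a stranded mRNA kit. The authors checked reads with FastQC, aligned them to hg38 with HISAT2 and counted them by strand over exons per gene name with featureCounts on the GRCh38 Ensembl annotation. The deposited values are raw counts, 1 column per library, without normalization, and no column was left unused. A gene's transcripts are summed in its count.

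From these counts, genes were kept with edgeR 4.0.16 (filterByExpr, minimum count 10) in R 4.3.3, scaled with TMM factors between 0.978 and 1.039, and fitted over 9 libraries in 1 quasi-likelihood model without a block. Standard errors were taken as the size of a log2 fold change over the root of its F, and 95% intervals use the model's degrees of freedom. The biological coefficient of variation was 0.0481. A permutation of 3 libraries against 3 cannot give a p under 0.1. The pipeline was tested on simulated data. Positions, UTRs and exon lengths are from GENCODE on hg38, the same assembly in another annotation release. Intervals cover the spread between libraries.

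The members and lists were chosen with earlier results of these data known. Named are the 10 members, the 2 genes of lowest adjusted p per list at each time, genes called in opposite directions at the 2 times, the 3 genes most like TFRC, FTH1 and HMOX1, and ferritin pseudogenes. Not every gene that meets these rules is reported here. SCARA5, BMP6, FDX2, MCOLN1, LRP1, SKP1, CDC14A, CDC42BPA, EGLN1, EGLN2, EGLN3, HIF1AN, VEGFA, ADM, HIF1A and SLC2A1 were named after their values were seen. The alternatives were DESeq2 1.42.0, RLE factors, upper-quartile factors, other filters, 2 groups at a time, the replicate number as a block, mitochondrial genes left out of library sizes, fold limits, summed pseudogenes and leaving out each library. Of the study's other data nothing was analysed here.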

Additional observations from a re-analysis of the deposited data

Results flagged for a closer look

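Genes were singled out where 24 h differed from 8 h at an adjusted p under 0.05 (edgeR, quasi-likelihood, all genes tested). This held for 2 of the 10 iron genes and 23 of the 29 list examples reported here, of which 8 were higher and 15 lower at 24 h. The examples were chosen for low adjusted p-values or opposite calls against untreated cells, so their share says nothing of the lists. Of all 95 list genes tested, 28 were higher and 34 lower at 24 h (65.3%), beside 54.8% of all genes. Without SCARA5, BMP6 and FDX2, which did not reach the filter's level in every group, 27 of 92 were higher and 33 lower (65.2%). Values are log2 fold changes of 24 h against 8 h.

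Ferritin fell between the times, with FTH1 at -0.30 and FTL at -0.30. In uptake and storage, STEAP3 (-0.43), PCBP2 (-0.38) and GLRX3 (-0.27) were lower at 24 h, and CYBRD1 (0.78), HFE (0.52) and TAX1BP1 (0.40) were higher. Among export genes FLVCR1 was at -0.83 and ABCG2 at 0.52.

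In iron sensing and iron-sulfur assembly, EPAS1 was higher at 24 h (0.53), while MMS19 (-0.31), CIAO3 (-0.18), BOLA3 (-1.23), CIAPIN1 (-0.37) and SLC25A37 (-0.11) were lower. In the haem list, ABCB10 (-0.28) and SLC48A1 (-0.84) were lower and BLVRA (0.49) and BLVRB (0.52) higher. Among HIF genes NDRG1 was at 0.30 and KDM3A at -0.17. These examples do not show the balance of that list. Against 8 h, its 14 genes gave 8 called higher, 2 called lower and 4 not called. The 9 targets split into 5 higher and 1 lower, and the 5 regulators into 3 higher and 1 lower. The list's median was 0.20, beside -0.016 for all genes tested, where 26% were called higher and 28.8% lower. Among NRF2 targets NQO1 (-0.33), SLC7A11 (-1.33) and SRXN1 (-0.34) were lower. The calls of CIAO3, SLC25A37 and NDRG1 were lost in some fits that left out 1 library, and that of SLC25A37 also under DESeq2 and with no filter.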

How the results depend on the processing

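No member called against untreated cells turned direction under any alternative. A log2 fold limit moved the counts most: with limits of 0.5 and 1, members called higher at 8 h and 24 h went from 1 to 0 and members called lower from 5 to 1 at both limits, and members lower at 24 h against 8 h from 2 to 0. All genes called went to 1673 and 723 higher and 1270 and 405 lower at 8 h, 1695 and 650 higher and 1400 and 468 lower at 24 h, and 1716 and 684 higher and 1789 and 634 lower for 24 h against 8 h. List genes went to 2 and 0 higher and 11 and 2 lower at 8 h, 1 and 1 higher and 11 and 5 lower at 24 h, and 9 and 1 higher and 6 and 4 lower for 24 h against 8 h. Without SCARA5, BMP6 and FDX2, which did not reach the filter's level in every group, the counts at 24 h were 0 and 0 higher and 10 and 4 lower, and against 8 h 8 and 0 higher and 5 and 3 lower.

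Upper-quartile factors made 2 members higher at 8 h, since FTL was then called (0.11, adjusted p = 0.0325), and put SLC11A2 at 0.00098 and PCBP2 at 0.0012 at 8 h, neither called. Against 8 h, 1 member was higher at 24 h instead of 0 with RLE factors, upper-quartile factors, DESeq2, no filter, 10 counts in every library and mitochondrial genes left out, in each case HMOX1 (0.19, 0.19, 0.18, 0.18, 0.18 and 0.18, adjusted p from 0.0183 to 0.0465). With the 2 groups alone there were 3: HMOX1 (0.20, adjusted p = 0.0209), TFRC (0.11, adjusted p = 0.0148) and FBXL5 (0.11, adjusted p = 0.0421). The cause of these shifts was not tested. No scaling moved the median of all genes by 0.1.

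Over 9 fits that each left out 1 library, members higher at 8 h ranged from 1 to 2, lower from 4 to 5, members lower at 24 h from 5 to 6, and members higher at 24 h against 8 h from 0 to 2. At 8 h FTH1 ranged from -0.17 to -0.11, FBXL5 from -0.16 to -0.12, FTL from 0.056 to 0.12 (called without untreated replicate 2, adjusted p = 0.0193, range 0.0193 to 0.196) and SLC11A2 from -0.052 to 0.042. IREB2 at 24 h ranged from -0.14 to -0.057. Against 8 h, TFRC ranged from 0.070 to 0.12 (called without untreated replicate 1, adjusted p = 0.0393, range 0.0393 to 0.392) and HMOX1 from 0.10 to 0.24 (4 of 9 called). TFRC against untreated cells ranged from 0.16 to 0.28 at 8 h and 0.25 to 0.37 at 24 h, called in all 9. Among the 11 uncalled list results that were run again, those that changed sign were GLRX3 (-0.020 to 0.036) and BOLA3 (-0.030 to 0.11) at 8 h and HFE (-0.035 to 0.065) and BLVRA (-0.082 to 0.027) at 24 h. Of 185 called list results, 31 lost the call under at least 1 alternative and none turned.

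With the replicate number as a block, 1 member was higher and 5 lower at 8 h and at 24 h, and no member's call changed. Deviations of libraries with the same number correlated between -0.100 and 0.0818, so the numbers were not taken to pair the samples. Untreated replicate 1 deviated most from its group (0.134 on the log2 scale, others 0.0893 to 0.117). Depth limits SLC40A1, with 11 to 53 counts per library.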
